A study of Rattus norvegicus with 10 samples.

Results

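Methylated RNA from 4 stretches of the rat genome, each 1 Mb long, is described here by the N6-methyladenosine (m6A) peaks that the authors called there. The stretches lie on chromosome 2 from 1 to 1000000, chromosome 17 from 8000001 to 9000000, chromosome 18 from 30000001 to 31000000 and chromosome 8 from 121000001 to 122000000, in build rn4. A peak was a member when its summit, the base with the highest read pileup, lay in a window. This gave 950 peaks of 133979, of which 457 came from the hypertrophic list of 65539 and 493 from the quiescent list of 68440.

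The cells were primary cardiomyocytes isolated from rat pups 1 to 3 days old and kept in M199 medium. Hypertrophic cells received 2% bovine serum and quiescent cells were serum free. Per the labels, 10 libraries form 5 groups of 2, namely input RNA and m6A immunoprecipitate of each condition, and an immunoprecipitate with normal IgG from hypertrophic cells. The files hold 1 peak list per condition, called against that negative control, so both lists share their control and no value has a replicate error. As labelled, the input RNA is not part of these calls. Differences in the amount of RNA therefore cannot be told apart from differences in methylation in peak presence, score or height. The sources used here do not say whether both immunoprecipitates of a condition went into its list, and they give no read totals, so only the summit height shows how many reads stand behind a peak. Peaks carry no gene names, and the labelled cell type could not be checked against marker genes.

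m6A is a methyl mark on adenosines of messenger and other RNA. It is placed by a methyltransferase complex around the enzyme METTL3, can be removed by the demethylases FTO and ALKBH5, and is bound by reader proteins of the YTH family that affect the splicing, translation and decay of the RNA. The mark is known to collect in long exons and near stop codons, so many peaks in a short stretch of genome can come from 1 transcript or from several neighbouring genes. Hypertrophy is the growth of heart muscle cells without division.

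The windows were chosen by their peak numbers in these lists, so their peak numbers are a description and support nothing. The chromosome 2 window held 110 hypertrophic and 157 quiescent peaks, the chromosome 17 window 121 and 129, the chromosome 18 window 117 and 118, and the chromosome 8 window 109 and 89. Over all 2727 windows of 1 Mb with at least 1 peak, the medians were 21 and 23. By the sum over both lists the windows ranked from 2 to 5. The window above them, on chromosome 16 from 27000001 to 28000000, held 270 peaks and is no member, while the last member held 198 and the next window below, on chromosome 1 from 263000001 to 264000000, held 182.

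The neighbouring stretches held fewer peaks than the windows and more than the median window. On chromosome 2 the following 1 Mb held 30 hypertrophic and 46 quiescent peaks. On chromosome 17 the preceding 1 Mb held 59 and 60 and the following 26 and 30. The chromosome 18 window lay between 1 Mb with 59 and 60 peaks and 1 Mb with 46 and 49, and the chromosome 8 window between 48 and 56 before it and 28 and 38 after it.

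**Figure D1:**
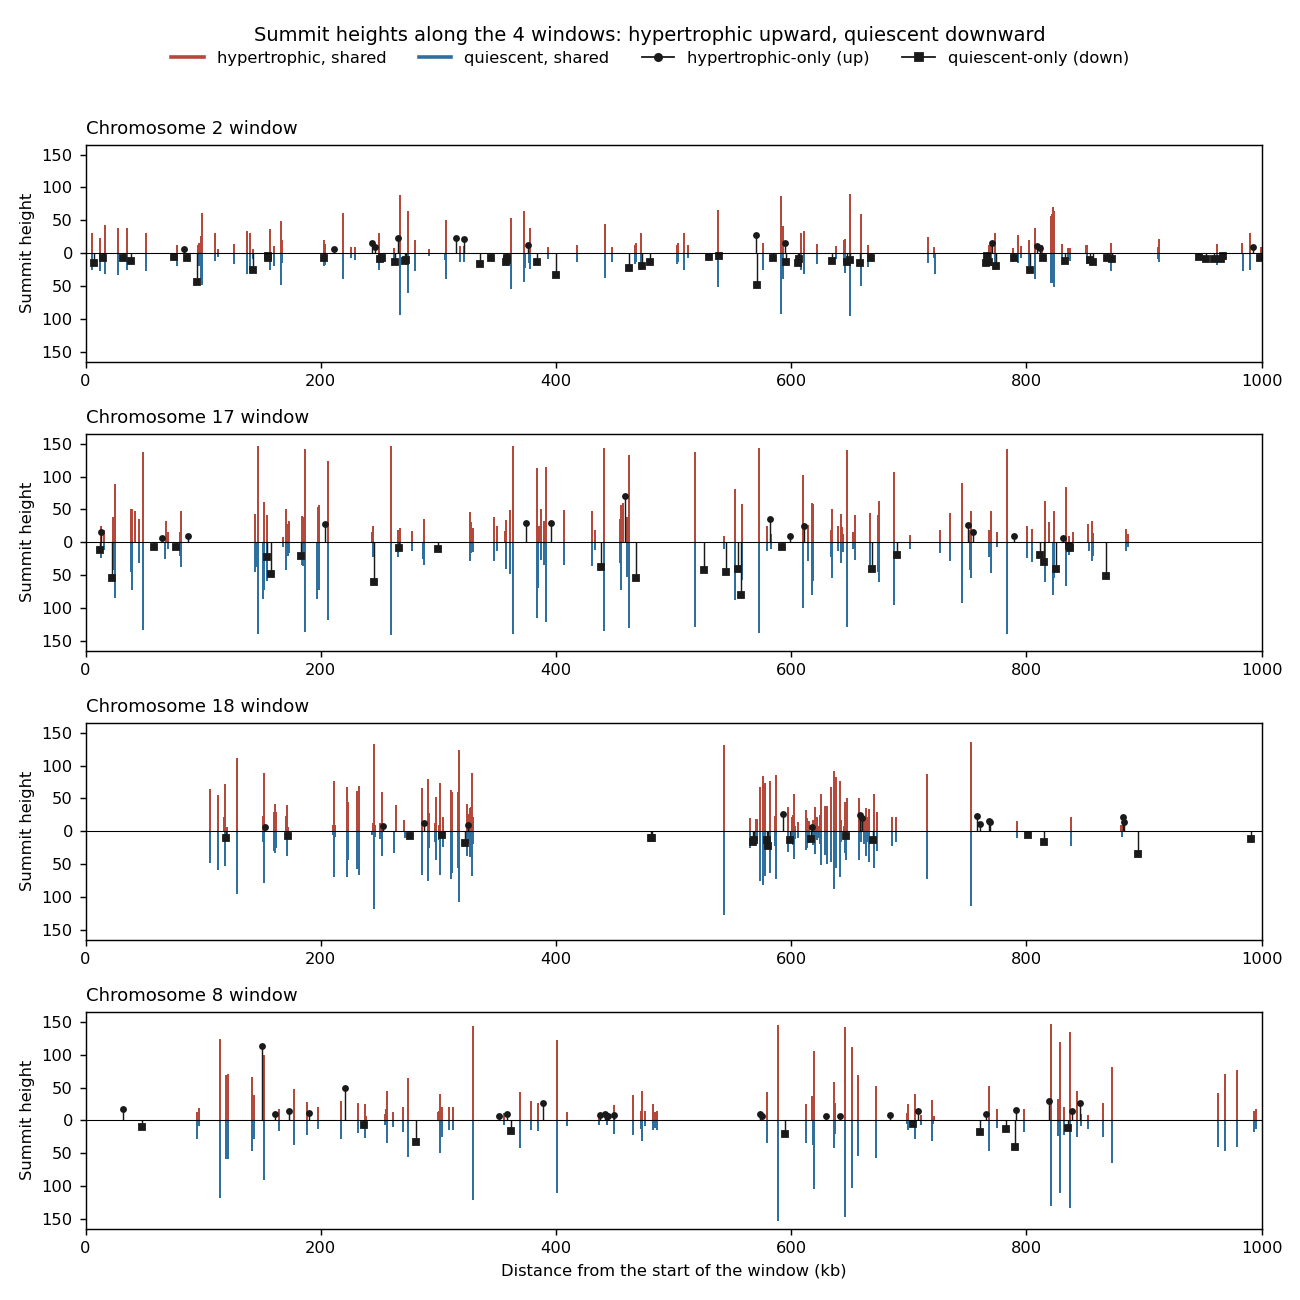
Summit height of each of the 950 peaks (vertical axis, deposited pileup height, hypertrophic upward and quiescent downward) against distance in kb from the start of its window, with condition-only peaks in black. Peaks are spread along the chromosome 2, 17 and 8 windows, whereas the chromosome 18 window has 2 blocks with a stretch between them that holds 2 peaks, both quiescent-only.

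Most peaks of the windows were found in both conditions. Any overlap with the other list, of 1 bp or more, made a peak shared, and the remaining peaks are called condition-only. Of the 457 hypertrophic peaks 67 were hypertrophic-only, 14.7% (Wilson 95% interval 11.7 to 18.2%, counting error only), against 25.8% of the whole hypertrophic list. Of the 493 quiescent peaks 110 were quiescent-only, 22.3% (interval 18.9 to 26.2%), against 29.0% of the whole quiescent list. Both shares were below the share of their list. An overlap of 1 bp is more easily met by position alone where peaks are dense, as in windows chosen for their density. How far this lowered the shares was not tested, so they are a description. Peaks with a score of at least 200 rarely lacked a partner: 1 of 172 hypertrophic peaks, with 2.07% in the whole list, and 3 of 199 quiescent peaks, with 6.69% in the whole list. The score is the authors' own value for each peak, higher where the immunoprecipitate exceeds the control more clearly, and it ranks peaks within a list only. A score of exactly 3100 recurs and was treated as a cap, although scores up to 3233.06 (hypertrophic) and 3225.28 (quiescent) occur. Equal scores of 3100 therefore do not rank peaks, and a peak at 3100 cannot be called weaker than one above it.

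The windows differed in which condition held the unmatched peaks. In the chromosome 2 window 56 of 157 quiescent peaks were quiescent-only (35.7%) and 14 of 110 hypertrophic peaks were hypertrophic-only (12.7%). The chromosome 8 window had the opposite order, with 25 of 109 hypertrophic-only (22.9%) and 10 of 89 quiescent-only (11.2%). The chromosome 17 window held 14 hypertrophic-only (11.6%) and 25 quiescent-only peaks (19.4%), and the chromosome 18 window 14 (11.97%) and 19 (16.1%). Of these 8 shares only the quiescent-only share on chromosome 2 exceeded the share of its whole list, 29.0%. The difference between windows was not tested, since each condition has 1 list and neighbouring peaks are not independent.

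To show the spread among dense windows, the 7 windows of the genome with at least 80 peaks in each list were taken, a limit chosen after the data were seen. Their hypertrophic-only share ran from 6.32 to 23.8% with a median of 12.7%, and their quiescent-only share from 11.2 to 49.7% with a median of 19.4%. The chromosome 2 window had the second highest quiescent-only share among the 7, and the chromosome 8 window the lowest. In hypertrophic-only share the chromosome 8 window was the second highest.

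**Figure D2:**
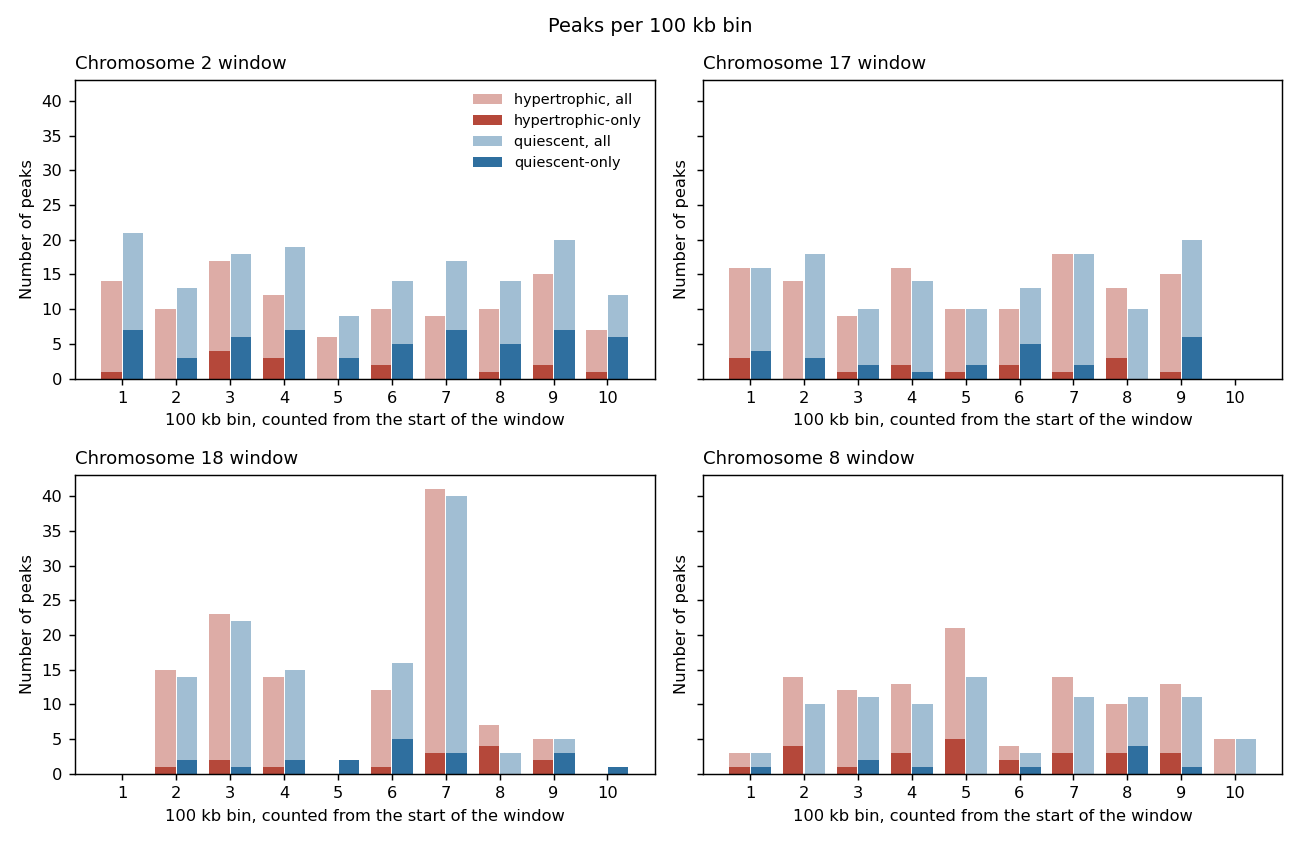
Number of peaks (vertical axis) in each 100 kb bin of the windows (horizontal axis, counted from the window's start), hypertrophic in red and quiescent in blue, with the condition-only part in the darker shade. All 10 bins of the chromosome 2 window hold more quiescent than hypertrophic peaks, and bin 7 of the chromosome 18 window reaches 41 hypertrophic and 40 quiescent peaks.

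The chromosome 2 window was a field of short, low peaks spread over its whole length. The median summit height of hypertrophic peaks was 16.5 and that of quiescent peaks 15, close to the 18 and 16 of the whole lists, and no summit reached 100. Median width was 295.5 and 303 bp, against 340 and 342 bp over the whole lists. Hypertrophic peaks covered 4.03% of the window and quiescent peaks 5.89%. Only 25.5% of the hypertrophic and 29.3% of the quiescent peaks scored 200 or more, against 31.2% and 34.1% of the whole lists.

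The additional quiescent peaks on chromosome 2 did not sit in one place. All 10 bins of 100 kb held more quiescent than hypertrophic peaks, and each held from 3 to 7 quiescent-only peaks, while hypertrophic-only peaks were found in 7 bins with at most 4 in a bin. When overlapping peaks of the lists were joined, the window held 160 sites, of which 90 had peaks of both conditions, 14 were hypertrophic-only and 56 quiescent-only. The median distance of a quiescent-only peak to the nearest hypertrophic peak of either kind was 2146.5 bp, from 68 to 16079 bp, and short distances follow from the density that chose the window.

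Low scores held most of the unmatched quiescent peaks, as in the whole list. Below a score of 100 lay 39 of the 56 in the window and 13839 of the 19855 in the list. From a score of 50 to below 100, 39 of 61 quiescent peaks were unmatched (63.9%), against 51.0% in that class of the whole list. From 100 to below 200 it was 16 of 50 (32.0%), against 24.8%. In the same classes 13 of 49 hypertrophic peaks (26.5%) and 1 of 33 (3.03%) were unmatched, against 49.0% and 17.96% of the whole hypertrophic list. Between the lists the window thus departed from the background in opposite directions in both low classes.

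The longest series of unmatched sites was a group of 5 quiescent-only sites from 335445 to 358661. Their summit heights were 16, 8, 13, 8 and 11 and their scores 50.39, 106.22, 185.4, 79.45 and 109.25. The last 3 of them formed a chain from 357377 to 358661, with summits at 357775, 358080 and 358359. Each of the 5 lay at least 2687 bp from the nearest hypertrophic peak. The highest-scoring quiescent-only peak of the window, from 634854 to 635482, scored 263.78 with a height of 12, with 2464 bp to the nearest hypertrophic peak. On the hypertrophic side the highest-scoring unmatched peak, from 314737 to 315150, scored 162.78 with a height of 23.

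The highest-scoring chromosome 2 peaks were present in both conditions, with summits on the same base or 1 bp apart. The highest score of either list fell on the same site: a hypertrophic peak from 537201 to 538246 scored 1173.94 with a height of 65, and the quiescent peak from 537204 to 537711 scored 699.83 with a height of 52, with both summits at 537491. The second in each list was the site at 306499, with hypertrophic height 51 and quiescent height 40 and summits 1 bp apart. The third differed, being the hypertrophic peak from 823020 to 823220 (score 677.31, height 64) and the quiescent peak from 441833 to 442254 (score 589.74, height 38), each with a partner whose summit was 1 bp away. The tallest summit of both conditions was not among these. The hypertrophic peak, from 650024 to 650538, had a height of 90 and a score of 78.64, and the quiescent peak, from 650013 to 650627, a height of 96 and a score of 156.25.

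The widest chromosome 2 peaks did not have the highest summits. The widest hypertrophic peak, from 801888 to 803000, was 1113 bp wide with a height of 20 and overlapped 2 quiescent peaks. The widest quiescent peak, from 983396 to 984533, was 1138 bp wide with a height of 27, and its summit lay 680 bp from that of its hypertrophic partner. In this window 11 of 110 hypertrophic peaks overlapped 2 quiescent peaks each. In the chromosome 17, 18 and 8 windows 4, 1 and 0 overlapped more than 1, and in the whole list 895 of 65539. The other way the windows were more alike: 6, 7, 6 and 4 quiescent peaks on chromosomes 2, 17, 18 and 8 overlapped more than 1 hypertrophic peak. In the whole quiescent list 900 of 68440 did. The window also held more quiescent than hypertrophic peaks.

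Part of the chromosome 2 peaks repeated each other's values. A width and height equal to those of another peak of the same window and list was found for 12 of 110 hypertrophic peaks (10.9%) and 14 of 157 quiescent peaks (8.92%), against 0.867% and 1.09% of the whole lists. On chromosome 17 it was 4 of 121 and 8 of 129, on chromosome 18 0 of 117 and 4 of 118, and on chromosome 8 0 of 109 and 2 of 89. A match within a window is more easily met where the window holds many peaks, and the median window of the lists held 21 and 23. The shares of the whole lists are therefore not a like background. In 8 pairs on chromosome 2, with hypertrophic peaks starting at 5504, 139924, 249821, 472310, 508549, 608149, 772963 and 990052, the hypertrophic height was 31 and the quiescent height 26 each time. The hypertrophic peaks from 467101 to 467591 and from 467634 to 468070, with heights of 13 and 16, were followed by peaks from 502939 to 503430 and from 503473 to 503907 with the same heights. Such sites are counted separately throughout, and whether they share their sequence or their reads was not tested. This search was made after the data were seen.

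The chromosome 17 window had the highest median pileup of the 4. Median summit height was 35 in both lists, against 18 and 16 over the whole lists, and it was the highest median among the 7 dense windows in both lists. A height of at least 100 was reached by 16 hypertrophic peaks (13.2%) and 15 quiescent peaks (11.6%), against 6.32% and 5.25% of the whole lists. All 31 of these had a partner in the other list, as did all peaks of that height in the chromosome 18 window. Over the whole lists few such peaks lacked one, 280 of 4143 hypertrophic and 502 of 3596 quiescent. Tall summits recurred along the window: bins 1 to 8 each held a hypertrophic summit of 138 to 147 and a quiescent summit of 129 to 141, while the highest in bin 9 were 84 and 81 and bin 10 held no peak of either list.

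Peaks on chromosome 17 scored low for their height, but not low as such. The median score per unit of height was 5.30 (hypertrophic) and 6.53 (quiescent), against 7.94 and 9.875 over the whole lists. The median score itself was 156.82 and 161.54, above the 119.77 and 126.495 of the whole lists. In the class from 50 to below 100 the median height was 25 for hypertrophic and 22.5 for quiescent peaks, where the whole lists had 10 and 9. The other windows lay at 12, 11 and 10 in the hypertrophic and at 9, 12 and 13 in the quiescent list. The 16 hypertrophic peaks of height 100 or more had a median score of 333.06, from 65.82 to 1178.37. On chromosome 8 the 12 such peaks had a median score of 2186.375, from 52.61 to 3100, and over the whole hypertrophic list the median was 426.33. In the quiescent list the medians were 404.37 on chromosome 17 and 2928.195 on chromosome 8, against 429.695 overall. Pileups of this height thus had lower median scores on chromosome 17 than on chromosome 8 in both lists. The control reads that enter the score are not analysed here.

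**Figure D3:**
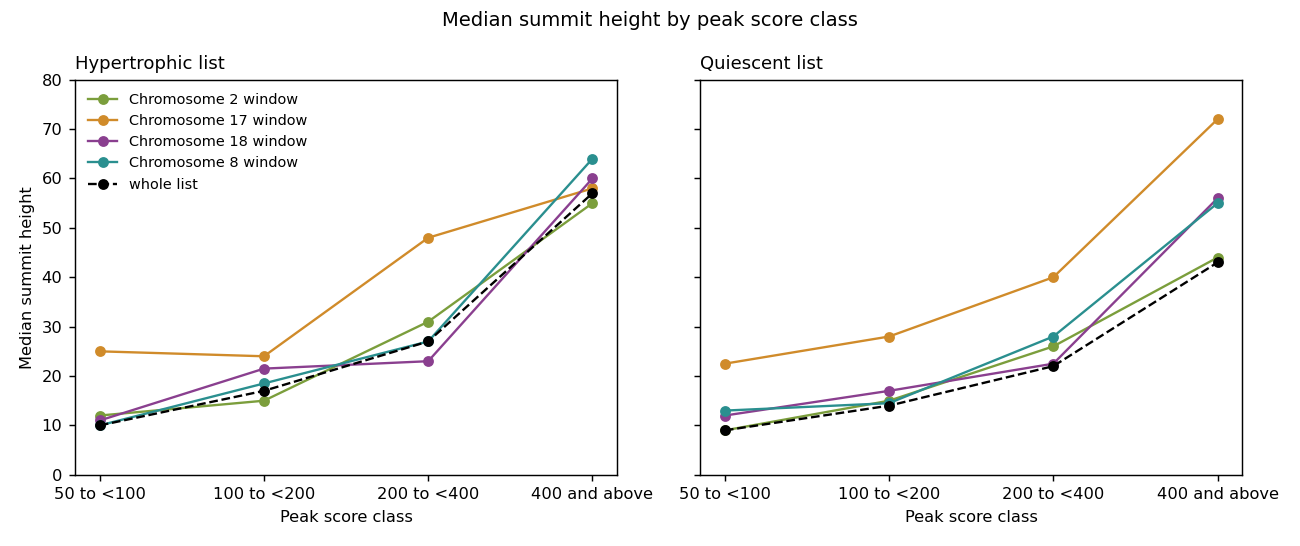
Median summit height (vertical axis) in each class of peak score (horizontal axis) for the 4 windows and the whole list (dashed), hypertrophic list left and quiescent list right. The chromosome 17 window lies above the whole list in every class, with 25 against 10 in the lowest hypertrophic class and 22.5 against 9 in the lowest quiescent class.

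The tallest chromosome 17 summits matched closely between conditions. The tallest hypertrophic summit, of a peak from 8146100 to 8146719, had a height of 147 and a score of 604.12, and its quiescent partner had a height of 139 and the summit on the same base. The tallest quiescent summit, of a peak from 8259042 to 8259749, had a height of 141, and its hypertrophic partner from 8259018 to 8259614 had 147 with the summit 3 bp away. A peak from 8461608 to 8462409, the second by score in the hypertrophic list at 1178.37, had a height of 133 against 130 in its partner. The third, from 8390779 to 8391506 with a score of 1031.89, had a height of 114 against 122. Over the whole lists the highest summit height was the same in both conditions. Whether heights are capped there, which would bring tall summits of the lists closer together, was not tested. The close matches of tall summits in these windows are therefore a description.

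Several broad chromosome 17 peaks were divided differently in the lists. The highest-scoring quiescent peak, from 8455063 to 8457818, was 2756 bp wide, scored 3100 and had a height of 72. The hypertrophic list had 2 peaks there, one from 8455079 to 8455656 which scored 67.01 at a height of 56, and one from 8455675 to 8457748 which scored 1498.55 at a height of 59, the highest score of the hypertrophic list in the window. The quiescent summit lay 2 bp from that of the former and 2041 bp from that of the latter, which had the higher score. Next to it, from 8458089 to 8458963, lay a hypertrophic-only peak with a height of 70 and a score of 50.01. It was the tallest unmatched hypertrophic peak of the window, 260 bp from the nearest quiescent peak, and was picked after its value was seen.

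The widest peaks of the chromosome 17 window were partners with summits at opposite ends. The quiescent peak from 8818857 to 8822516 was 3660 bp wide with a height of 81 and its summit at 8822357. Its hypertrophic partner from 8819083 to 8822011 was 2929 bp wide with a height of 31 and its summit at 8819339, 3018 bp away. Of the peaks wider than 1000 bp here 11 were hypertrophic and 16 quiescent, and the next quiescent peaks by score were also broad. One, from 8039459 to 8042671, scored 2418.23 over 3213 bp with a height of 72, and the other, from 8198452 to 8200963, scored 1810.37 over 2512 bp with the same height.

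Unmatched peaks on chromosome 17 were tall for such peaks. The median height of the 25 quiescent-only peaks was 30 and that of the 14 hypertrophic-only peaks 20, where all condition-only peaks of the lists had medians of 9 and 11. The tallest quiescent-only peak, picked after its value was seen, lay from 8556233 to 8557315 with a height of 81 and a score of 98.86, 275 bp from a hypertrophic peak. The highest-scoring one, from 8811057 to 8811467, scored 234.64 with a height of 19. The highest-scoring hypertrophic-only peak, from 8788972 to 8789313, reached 107.36 with a height of 10.

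The chromosome 18 window had the closest packing. Neighbouring summits were a median of 1750 bp (hypertrophic) and 1816 bp (quiescent) apart, against 13231.5 and 14298 bp over the whole lists. In the other windows it was 5298 and 3040 bp (chromosome 2), 3339 and 3370 bp (chromosome 17) and 5008.5 and 6713.5 bp (chromosome 8). Neighbours lay within 2000 bp of each other in 53.4% of hypertrophic and 51.3% of quiescent cases on chromosome 18, against 15.6% and 16.0% in the whole lists. Spacing follows from the density by which the windows were chosen, so it too is a description.

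**Figure D4:**
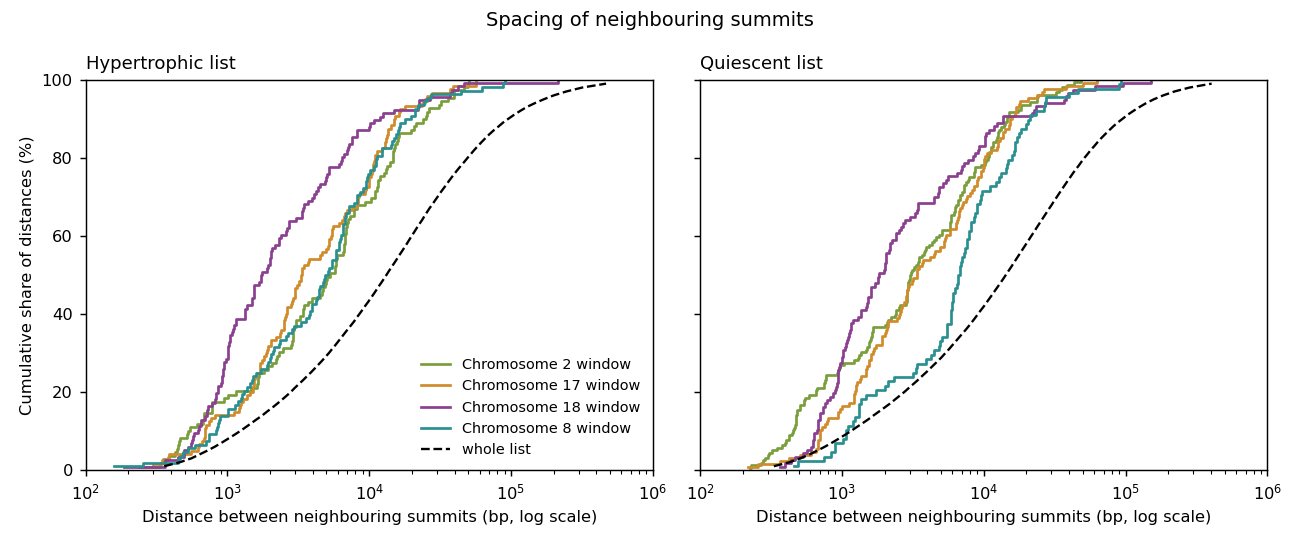
Cumulative share of distances between neighbouring summits (vertical axis, percent) against distance in bp (log scale) for the 4 windows and the whole list (dashed), hypertrophic list left and quiescent list right. The chromosome 18 curve is the leftmost through the middle of the range, with a median of 1750 bp in the hypertrophic list, and the chromosome 8 quiescent curve the rightmost of the windows with a median of 6713.5 bp.

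Most chromosome 18 peaks sat in a pair of blocks. The first 100 kb held none, the next 3 bins held 15, 23 and 14 hypertrophic and 14, 22 and 15 quiescent peaks, and a gap followed. In the hypertrophic list no summit lay between 30329643 and 30542617, a distance of 212974 bp and the longest in any of the windows. Bin 7 then held 41 hypertrophic and 40 quiescent peaks, 35.0% and 33.9% of the window's peaks, and they covered 26.9% and 27.3% of its 100 kb. Of these, 38 and 37 were shared. Bins 8 to 10 together had far fewer, with 7, 5 and 0 hypertrophic and 3, 5 and 1 quiescent peaks.

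Within the dense 100 kb the hypertrophic summits ran from 30600880 to 30688939 and the quiescent ones from 30600880 to 30688936, with median distances of 1615.5 and 1602 bp. Heights there varied from 5 to 91 (median 25) and from 6 to 88 (median 21). The longest chain of summits with no step over 2000 bp held 10 peaks in each list, from 30615497 to 30625662 and from 30615454 to 30625660. In that chain hypertrophic heights ran from 5 to 57 and quiescent heights from 6 to 52, so low and high summits lay side by side. Of the 10 peaks 9 were shared in each list. Chains of this length were not found in the other windows, where the longest held 6 peaks.

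The gap between the blocks held 2 quiescent-only peaks with the same values. They lay from 30480529 to 30480757 and from 30481894 to 30482122, 1365 bp apart from start to start, and both had a width of 229 bp, a score of 136.84 and a height of 10. The nearest hypertrophic peak was 60585 bp from the first and 59220 bp from the second. Whether the 2 stretches share their sequence was not tested.

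High scores were common on chromosome 18. Hypertrophic peaks had a median score of 207.02 and quiescent peaks one of 212.58, against 119.77 and 126.495 over the whole lists. A score of 1000 or more was held by 21 of 117 hypertrophic and 20 of 118 quiescent peaks, against 3382 of 65539 and 4181 of 68440 in the whole lists. It was not particular to this window: chromosome 8 had 16 of 109 and 16 of 89. The chromosome 17 window had 3 and 7, and the chromosome 2 window 1 and 0. The first 3 by score were the same sites in both lists. The peak from 30244994 to 30245545 was at the cap of 3100 in both, with hypertrophic height 133 and quiescent height 118. The second, from 30640285 to 30641624 in the hypertrophic list, scored 2647.12 with a height of 77, and its quiescent partner scored 3068.24 with a height of 69 and the summit 3 bp away. The third, from 30290580 to 30291194, scored 2221.1 with a height of 79, and its partner scored 2455.49 with a height of 75.

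The tallest and widest chromosome 18 peaks ranged widely in score. The tallest hypertrophic summit, of a peak from 30752205 to 30753478, had a height of 136 and a score of 141.71, and its quiescent partner had a height of 114 with the summit 321 bp away. The tallest quiescent summit, of a peak from 30541198 to 30543097, had a height of 127 and a score of 1216.92, against 131 and 710.18 in its hypertrophic partner. The widest peak of both lists began at 30714579 (hypertrophic, 2980 bp, height 87, score 569.43) and 30714580 (quiescent, 2338 bp, height 73, score 236.51).

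Of the 14 hypertrophic-only peaks on chromosome 18, 4 formed a series past the dense block. These sites, from 30757034 to 30769589, had heights of 23, 11, 15 and 14 and scores from 56.12 to 164.06. It followed the tallest hypertrophic summit, and the nearest quiescent peak was 3657 bp from the first and 15800 bp from the last. The only unmatched hypertrophic peak of the 4 windows with a score over 200, from 30882295 to 30882501, scored 257.48 with a height of 21. The highest-scoring quiescent-only peak, from 30172287 to 30172626, scored 162.56 with a height of 7, and a hypertrophic peak was 161 bp away.

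The chromosome 8 window had more hypertrophic than quiescent peaks, and its strongest sites were at the top of the score range. Hypertrophic peaks were the more numerous in 7 of its 10 bins and quiescent peaks in 1. A score at or above the cap of 3100 was reached by 4 hypertrophic and 5 quiescent peaks, against 517 of 65539 and 648 of 68440 in the whole lists. The peak from 121588259 to 121589115 had a hypertrophic height of 145 and a quiescent height of 153, the tallest summit of all 950 peaks. One from 121328665 to 121329499 had 143 against 121, and one from 121645210 to 121646102 had 142 against 147, with summits 1 and 2 bp apart. The highest deposited quiescent score, 3195.91, was that of a peak from 121836442 to 121837266 with a height of 133. Its partner scored 2694.42 with a height of 135. This does not rank it above the peaks at exactly 3100.

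Unmatched hypertrophic peaks on chromosome 8 were mostly weak, as such peaks were in the whole list. Of the 25, 22 scored below 100, and in the whole list 13295 of 16939 did. These 22 were 55.0% of the 40 hypertrophic peaks in that class, against 49.0% in the whole list. From 100 to below 200 the share was lower than in the list, 3 of 28 (10.7%) against 17.96%. The 25 had a median height of 10, close to the 11 of all hypertrophic-only peaks. They were found in 9 of 10 bins, and 5 lay in bin 5, the densest, which held 21 hypertrophic and 14 quiescent peaks. There 3 adjoining hypertrophic-only sites from 121443431 to 121449050 had heights of 7, 6 and 8 and scores of 53.27, 55.04 and 66.88. The highest-scoring hypertrophic-only peak, from 121190081 to 121190474, scored 189.04 with a height of 11. One unmatched peak stood out in height and was picked after its value was seen: from 121149272 to 121149989 the hypertrophic list had a height of 113 at a score of 52.61, with the nearest quiescent peak 1411 bp away. It was the only unmatched peak among those of height 100 or more in the 4 windows.

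Quiescent-only peaks on chromosome 8 numbered 10, of which 4 lay in bin 8. The highest-scoring, from 121361928 to 121362267, reached 155.59 with a height of 16. Division of sites also differed here. The widest quiescent peak, from 121299154 to 121301497, was 2344 bp wide, scored 2292.78 and had a height of 50, and it overlapped 3 hypertrophic peaks with heights of 12, 15 and 40. The widest hypertrophic peak, from 121967780 to 121969519, had a height of 71 and a score of 196.51, against 46 and 60.89 in its partner. The tallest hypertrophic summit, of a peak from 121820953 to 121822013, had a height of 146 at a score of 213.84, and its partner had 130 at 218.12.

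Summit heights of matched sites were compared between conditions over mutual nearest summits within 100 bp, 335 pairs in the windows and 42738 in the lists. The quiescent summit was the lower one in most pairs of every window. Counting pairs with the same 2 heights once, chosen after the data were seen, left 73, 87, 83 and 68 pairs on chromosomes 2, 17, 18 and 8, and the hypertrophic summit was still the higher one more often than the quiescent one in each. With all pairs, on chromosome 2 the hypertrophic summit was higher in 47 of 86 pairs and the quiescent one in 34, on chromosome 17 in 62 and 29 of 93, on chromosome 18 in 61 and 19 of 86, and on chromosome 8 in 55 and 12 of 70. The median log2 ratio of quiescent to hypertrophic height was -0.11, -0.07, -0.14 and -0.24 in that order, against -0.16 over all pairs. Relative to that shift of the whole lists, the medians were 0.05, 0.09, 0.02 and -0.08. The direction in the chromosome 2, 17 and 18 windows therefore turned under this centring, and in the chromosome 8 window it did not. The uncentred chromosome 8 median had an interval of -0.379 to -0.161 over its pairs, which includes the -0.162 of all pairs. Its direction relative to the lists is therefore not settled either. The scaling of heights is not stated for these files, and no other scaling was tried.

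Differences of at least 1.5-fold made up a smaller share of the pairs in the windows than in the whole lists, and this was not tested. The hypertrophic summit was higher by that much in 49 of 335 pairs (14.6%), against 19.1% of all pairs, and the quiescent summit in 13 (3.88%), against 8.81%. By window, the hypertrophic summit was higher in 11, 17, 6 and 15 pairs on chromosomes 2, 17, 18 and 8 (12.8%, 18.3%, 6.98% and 21.4%), and the quiescent summit in 8, 3, 1 and 1. The chromosome 18 window had the smallest share of either kind together, and the chromosome 8 window lay near the background for a higher hypertrophic summit. In the chromosome 2 window, which held the most quiescent-only peaks, the 8 pairs with a higher quiescent summit made up 9.30%, near the 8.81% of all pairs. The 335 pairs were also taller, with median heights of 31 (hypertrophic) and 27 (quiescent), against 23 and 21 over all pairs. Shares at matched height were not computed.

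**Figure D5:**
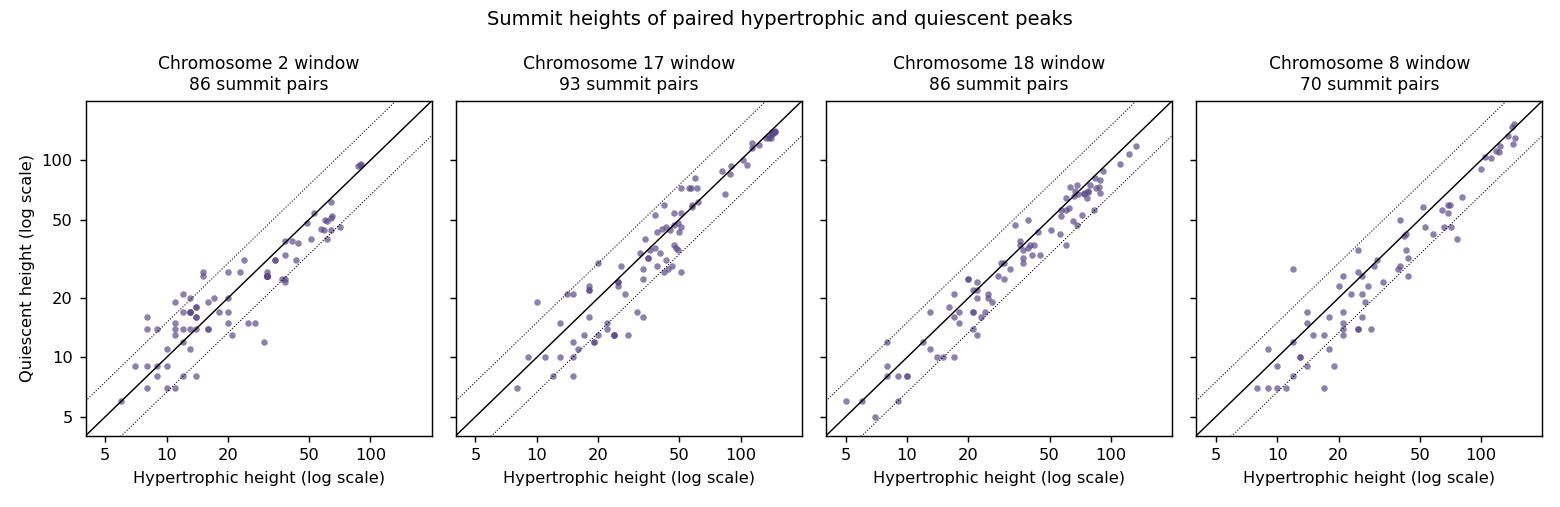
Quiescent against hypertrophic summit height (both on log scales) for the 335 summit pairs of the 4 windows, with the line of equal height and dotted lines at 1.5-fold. On chromosome 8 most points lie below the line of equal height, 55 of 70, and on chromosome 18 only 7 of 86 points lie at or beyond the dotted lines.

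Heights of the pairs followed each other over the whole range, with a Pearson correlation of log2 heights of 0.90 on chromosome 2, 0.94 on chromosome 17, 0.97 on chromosome 18 and 0.95 on chromosome 8, against 0.90 over all pairs. These are descriptions across sites that share their control and their transcripts. Summits of a pair lay 6, 7, 9 and 9 bp apart in the median, in the same order, against 10 bp over all pairs, and 23 of the 335 pairs had both summits on the same base.

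The largest height ratios in each window belonged to modest peaks. On chromosome 2 the site at 110007 to 110354 had a hypertrophic height of 30 and a quiescent height of 12, a ratio of 2.50, and the site at 262518 to 262814 had 8 and 16, a ratio of 2.00 the other way. On chromosome 17 the site at 8852682 to 8853010 had 28 and 13, and the one at 8836310 to 8836694 had 10 and 19. On chromosome 18 the extremes were 17 and 10 at 30271014 to 30271337, and 8 and 12 at 30603141 to 30603540. On chromosome 8 they were 17 and 7 at 121255246 to 121255549, and 12 and 28 at 121094761 to 121095036, a ratio of 2.33 in favour of the quiescent list. No summit over 30 was among these 8 pairs, and at such heights a few reads change the ratio.

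Empty stretches were placed alike in the lists. The longest distance between neighbouring summits on chromosome 2 was from 665503 to 716189 for hypertrophic and from 668034 to 716171 for quiescent peaks. On chromosome 17 it ran from 8087214 to 8143868 and from 8081054 to 8143902. In the chromosome 18 quiescent list it ran from 30329571 to 30480678, ending at the unmatched quiescent peaks inside the hypertrophic gap. In the chromosome 8 window the longest hypertrophic distance, 90003 bp, ran from 121872716 to 121962719 and the longest quiescent one, 93444 bp, from 121485587 to 121579031. In that quiescent gap the hypertrophic list had no summit from 121485629 up to 121573528, where a pair of hypertrophic-only peaks lay.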

How the data were processed

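Per the submitters' processing notes, CASAVA 1.8, TopHat, MACS 1.4 and build rn4 were used. The sources used here give no parameters, and nothing on replicate pooling or reads with several map positions. The deposited peak score is the authors' value per peak (50 or more in every peak), in the layout of the MACS 1.4 BED output. The deposited summit height is a signal, the pileup at the summit in whole numbers up to 164, with no scaling stated. Per the labels, "normal" names the quiescent condition. All deposited value columns were used, and 0 were left out.

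Peaks were assigned to windows by summit and positions are counted from 1. Overlap (at least 1 bp), mutual nearest summits (within 100 bp), spacing and joined sites were computed with Python 3.11.15, numpy 2.4.6, pandas 2.3.3 and scipy 1.17.1. Figures were drawn with matplotlib 3.10.9. Overlap and the pairing of summits were checked on a thinned, shifted and rescaled copy of the hypertrophic list, and spacing and joined sites were not. With 1 list per condition no test was run. Wilson 95% intervals cover counting error only. In each window and list the named peaks were the 3 highest scores, the tallest, the widest and the highest-scoring condition-only peak, with the extreme height pairs and the longest distance. Other peaks, series, chains and repeated sets that are named fall outside that rule. They should be read as picked after their values were seen, also where this is not said. The members and lists were chosen with earlier results of these data known. Gene tables at hand belong to assembly GRCr8, so genes and sequences were not read by position.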

Additional observations from a re-analysis of the deposited data

How the results depend on the processing

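Of 96 values under alternative settings, 4 of them added after the data were seen, 65 stayed within 1.5 times the count or within the interval of the value as reported, 28 moved and 3 changed sign. Centring heights on all pairs turned the median log2 ratio to 0.054 on chromosome 2, 0.091 on chromosome 17 and 0.022 on chromosome 18, by the construction of the centring, and moved chromosome 8 to -0.082. With scores of at least 100, the chromosome 2 window held 61 hypertrophic and 96 quiescent peaks, the chromosome 17 window 85 quiescent and the chromosome 8 window 69 hypertrophic peaks. Joining peaks within 1000 bp left 61 and 63 on chromosome 18. With summits within 100 bp as the rule, shared shares (hypertrophic, quiescent) were 78.2 and 54.8% on chromosome 2, 76.9 and 72.1% on chromosome 17, 73.5 and 72.9% on chromosome 18, and 64.2 and 78.7% on chromosome 8. For peaks scoring at least 100 with partners in the whole list they were 98.4 and 82.3%, 98.8 and 91.8%, 95.7 and 93.0%, and 95.7% (hypertrophic, chromosome 8); with the bound on both lists the quiescent share on chromosome 18 was 89.5%. Among shared peaks only, quiescent peaks on chromosome 2 had a median height of 20 and score of 167.71, and hypertrophic peaks on chromosome 8 a score of 196.58. With summits of both lists joined, median spacing was 2785.5 bp on chromosome 2 against the hypertrophic value and 4416 bp on chromosome 8 against the quiescent value. With pairs of the same 2 heights counted once, the median log2 ratio was -0.07 on chromosome 2, where the hypertrophic summit was higher in 38 of 73 pairs. Except for the construction of the centring, the score bound and the joining, the cause was not tested. No paired analysis was possible because each condition has 1 list. Depth limits low summits: 5 is the lowest height among the members.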

Other observations

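Some of the peaks with repeated values were also equal in score. Equal score, summit height and width within a window and list were looked for after the data were seen, without peaks at or above 3100. In the chromosome 2 window a hypertrophic peak from 5504 to 5677 and one from 990052 to 990225, 984548 bp apart, both scored 242.32 with a height of 31 and a width of 174 bp. The quiescent list repeated this at the same places, from 5502 to 5636 and from 990093 to 990227, where both peaks scored 245.5 with a height of 26 and a width of 135 bp. Another quiescent set on chromosome 2 lay from 472308 to 472442 and from 772961 to 773095, both scoring 169.74 at a height of 26. These 6 peaks were all shared between conditions.

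On chromosome 17 the quiescent-only peaks from 8076517 to 8076697 and from 8591851 to 8592031 both scored 71.56 with a height of 7. On chromosome 18, beside the set in the gap between the blocks, the quiescent-only peaks from 30303369 to 30303589 and from 30800872 to 30801092 both scored 54.3 with a height of 6. Such peaks made up 2 of 110 hypertrophic and 4 of 157 quiescent peaks on chromosome 2, 2 of 128 quiescent peaks on chromosome 17 and 4 of 117 on chromosome 18, against 0.511% of the hypertrophic and 0.633% of the quiescent list. These matches too are more easily met in a window with many peaks. Whether reads of repeated sequence were placed at both members of a set was not tested.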
